A study of Mus musculus with 4 samples.

Results

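The tetraspanin family was examined in RNA sequencing data of mouse embryonic stem cells, comparing cells mutant for Chd2 on both alleles with wild-type cells. Members were the rows of the deposited gene table whose symbol is Tspan followed by a number, together with Cd9, Cd37, Cd53, Cd63, Cd81, Cd82, Cd151, Upk1a, Upk1b and Rom1. This gave 30 genes of 23309 listed. Prph2, a photoreceptor tetraspanin, lies outside this choice. The cells of both genotypes were of the 129/Ola strain, at passages 10 to 20, grown on gelatin in medium with 10% fetal bovine serum and 1000 U/ml of leukemia inhibitory factor. The mutant group (Chd2 mut/mut, with Chd2KO in the titles) and the wild-type group had 2 libraries each, called lot 1 and lot 2. The labels give neither the kind of Chd2 mutation nor whether a genotype stands for more than 1 clone or culture, and the authors' q-values may thus reflect technical spread only.

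Tetraspanins are small membrane proteins that cross the membrane repeatedly and carry a short and a long extracellular loop. They bind integrins, immunoglobulin superfamily proteins, proteases and one another, and so gather partner proteins into patches of the plasma membrane and of endosomes. Cd9 is used as a surface marker of mouse embryonic stem cells, and Cd63 and Cd81 are standard markers of extracellular vesicles. Chd2 is a chromatin remodeler that uses ATP to move nucleosomes.

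The deposited table holds 1 value per gene and genotype, in FPKM, which scales sequenced fragments by transcript length and by the mapped total of a library. No value per library was analysed here, so no level below has a standard deviation, and significance is that of the q-values in the authors' deposited table, called at a q-value under 0.05. Sequencing depth is unknown, so no counting interval is given. The 4 libraries are bulk samples, in which fewer cells of a type and less RNA per cell cannot be told apart. Chd2 itself was at 5.69 FPKM in the mutant and 10.2 FPKM in wild type, or 55.9% of wild type, and the authors' deposited table calls it with a q-value of 0.0103. All 8 embryonic stem cell markers had levels far above 1 FPKM in both genotypes, Pou5f1 at 1071 FPKM in the mutant and 1032 FPKM in wild type. Their median difference on the log2(FPKM + 1) scale (mutant minus wild type throughout) was 0.15, and none was called. Genes averaging 1 FPKM or more had a median of -0.0012. Of the 8 markers, 7 lay above 0 and 1 below, and the largest difference was that of Nanog (0.39).

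Cd37 was the only tetraspanin called in the authors' deposited table, and it fell. Its level was 1.16 FPKM in the mutant and 3.78 FPKM in wild type, so the mutant held 30.8% of what wild type had. In the authors' deposited table its log2 fold change is -1.70 and its q-value 0.0103, a minimum that 55 genes share. Of 30 members, 23 had a q-value under 1, and the 1 call is 4.35% of these. Over all 11276 genes with a q-value under 1, 81 (0.718%) were called, and 52 (0.461%) were called and lower in the mutant. With 1 call, the share among tetraspanins describes Cd37 and not the family. At 0.718% over all genes, a short list without a call, as in several groups below, is not set apart from genes in general. The other 22 members with a q-value under 1 were not called, and 17 of them had a q-value above 0.9 in the authors' deposited table.

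Cd37 encodes a tetraspanin of leukocytes that is abundant on mature B cells. The Cd37 gene lies on chromosome 7. Its promoter window from RefSeq (build GRCm38.p6, minus strand, chr7:45238790-45239089, 250 bases before to 50 after the annotated start) is shown because it belongs to the called member. Capitals mark CG dinucleotides, the targets of DNA methylation, of which it has 8.
Cd37: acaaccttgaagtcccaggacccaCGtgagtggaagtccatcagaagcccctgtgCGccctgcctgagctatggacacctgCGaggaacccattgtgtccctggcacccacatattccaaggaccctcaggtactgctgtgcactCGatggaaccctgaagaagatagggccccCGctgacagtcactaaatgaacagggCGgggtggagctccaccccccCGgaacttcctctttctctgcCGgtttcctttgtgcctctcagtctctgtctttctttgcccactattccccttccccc

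The 3 nearest listed genes on 1 side of Cd37 on chromosome 7 were Tead2, Dkkl1 and Pth2, and on the other side Trpm4, Hrc and Ppfia3. None of them was called, and only Tead2, Trpm4 and Ppfia3 had a q-value under 1. At 0.718% called among all genes with a q-value under 1, the absence of a call does not set these neighbours apart. Tead2, which encodes a TEAD transcription factor of the Hippo pathway, was at 39.6 FPKM in the mutant and 42.4 FPKM in wild type. The calcium-activated channel gene Trpm4 was at 3.38 FPKM in the mutant and 2.83 FPKM in wild type, and Ppfia3 at 1.68 FPKM in the mutant and 1.94 FPKM in wild type. Dkkl1 was at 0.431 FPKM in the mutant and 0.507 FPKM in wild type, Hrc at 0.154 FPKM in the mutant and 0.131 FPKM in wild type, and Pth2 was listed at 0 in both. Of these 6 neighbours, those above 1 FPKM differed by between -0.13 and 0.19 on the log2(FPKM + 1) scale, against -1.14 for Cd37. In the GENCODE M21 annotation (GRCm38), Tead2 lies on the opposite strand and its exons share 13 bases with those of Cd37, 0.369% of the annotated Cd37 exon bases. The labels do not state that counting used strand, so reads from these shared bases cannot be assigned.

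The other leukocyte tetraspanins were at low levels. Tspan32, also known as Tssc6 and expressed in blood cells, was at 3.46 FPKM in the mutant and 3.73 FPKM in wild type. Cd82, known as a suppressor of metastasis, was at 0.264 FPKM in the mutant and 0.299 FPKM in wild type, and the leukocyte antigen Cd53 at 0.0270 FPKM in the mutant and 0.0372 FPKM in wild type. In this group of 4, only Cd37 and Tspan32 had a q-value under 1, and Cd37 was the 1 gene called. Among all genes with a q-value under 1, 0.718% were called, and 1 call describes Cd37 and not the group. Among 16 markers of leukocytes and B cells, 15 were in the table, 6 averaged 1 FPKM or more over the genotypes and none was called. Ptprc, the pan-leukocyte phosphatase, Ms4a1, a B cell surface antigen, and the myeloid lysozyme Lyz2 were listed at 0 in both genotypes. Of the B cell receptor genes, Cd79a was at 1.15 FPKM in the mutant and 1.27 FPKM in wild type, and Cd79b at 1.54 FPKM in the mutant and 1.59 FPKM in wild type. The summed level of the marker list was 66.3 FPKM in the mutant and 67.0 FPKM in wild type, most of it from Laptm5 at 43.4 FPKM in the mutant and 47.03 FPKM in wild type. The 6 genes kept differed by between -0.11 and 0.28 on the log2(FPKM + 1) scale. Cd68 was at 11.0 FPKM in the mutant and 8.89 FPKM in wild type, Coro1a at 6.24 FPKM in the mutant and 5.29 FPKM in wild type, and Cd3e at 2.12 FPKM in the mutant and 2.28 FPKM in wild type.

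A few members made up most of the family's RNA. Summed over the 30 members, the level was 620.3 FPKM in the mutant and 600.7 FPKM in wild type, a ratio of 1.03. Cd9, Cd63 and Cd81 together held 66.9% of that sum in the mutant and 66.1% in wild type. The same 8 genes reached 10 FPKM in both genotypes, in the same order. At least 1 FPKM was reached by 21 members in the mutant and by 19 in wild type, and the difference is Tspan2 and Tspan8, which lay above that level in the mutant and below it in wild type. How far neighbouring ranks differ beyond the spread of libraries is unknown.

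**Figure D1:**
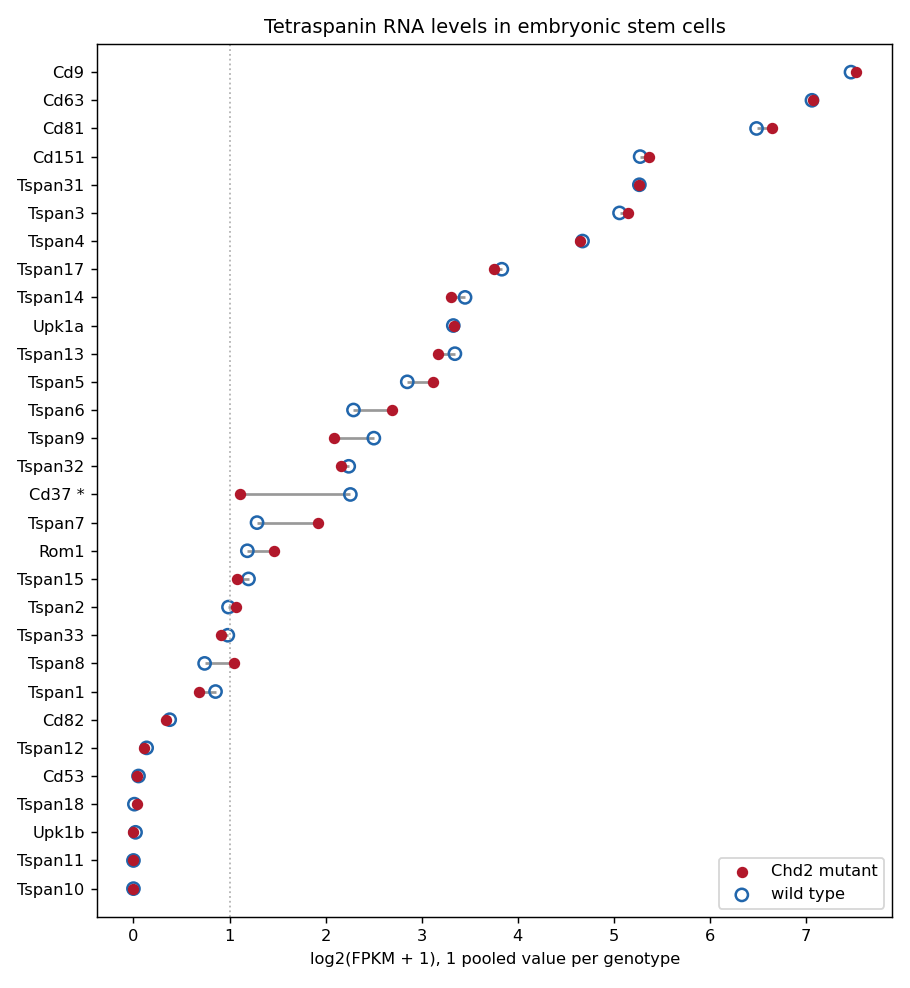
RNA level of the 30 tetraspanins on the log2(FPKM + 1) scale, with the Chd2 mutant as filled points and wild type as open circles, ordered by mean level; each point is the authors' 1 value per genotype, the dotted line marks 1 FPKM and the asterisk marks the called gene. Most pairs of points lie close together, while Cd37 lies lower in the mutant (1.16 FPKM) than in wild type (3.78 FPKM).

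Cd9 and Cd81, close relatives that bind immunoglobulin superfamily proteins and act in cell fusion, were among the 3 most abundant members. Cd9 was at 183 FPKM in the mutant and 176 FPKM in wild type. Cd81 was at 98.8 FPKM in the mutant and 88.6 FPKM in wild type. Their relative Tspan2, best known from oligodendrocytes, was at 1.10 FPKM in the mutant and 0.985 FPKM in wild type. All 3 lay slightly higher in the mutant, by 0.06 to 0.16 on the log2(FPKM + 1) scale, and none was called. The Cd9 window from RefSeq (build GRCm38.p6, chromosome 6, minus strand, chr6:125494711-125495010) is shown as that of the most abundant member, with its 18 CG dinucleotides in capitals.
Cd9: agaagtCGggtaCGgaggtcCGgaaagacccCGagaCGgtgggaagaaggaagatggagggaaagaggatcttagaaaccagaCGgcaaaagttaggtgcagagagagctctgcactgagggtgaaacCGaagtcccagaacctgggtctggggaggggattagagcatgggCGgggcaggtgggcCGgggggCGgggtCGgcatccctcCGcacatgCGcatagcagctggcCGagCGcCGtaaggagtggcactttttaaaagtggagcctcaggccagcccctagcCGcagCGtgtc

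Members placed in a list of late endosomes and vesicles, Tspan7 among them, ranged from abundant to low. RNA levels do not test where their proteins lie. Cd63, the lysosomal and exosomal tetraspanin, was at 133.3 FPKM in the mutant and 132.6 FPKM in wild type. Tspan3 was at 34.3 FPKM in the mutant and 32.3 FPKM in wild type. Tspan6, which has been linked to exosome formation, was at 5.46 FPKM in the mutant and 3.89 FPKM in wild type, with a q-value of 0.486 in the authors' deposited table. Tspan7, a cell surface protein of neurons in which human mutations cause intellectual disability, was at 2.78 FPKM in the mutant and 1.44 FPKM in wild type. Its ratio of 1.93 was the highest of the 20 members averaging 1 FPKM or more. The authors' deposited table gives Tspan7 a q-value of 0.145, the lowest of any uncalled member, and 54 other uncalled genes had a lower one. At the threshold of 0.05 Tspan7 was not called. All 4 members of this list lay above 0, with a median difference of 0.24 on the log2(FPKM + 1) scale. Their differences ran from 0.0085 for Cd63 to 0.63 for Tspan7.

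Tspan6 and Tspan7 are the 2 members on the X chromosome. Of 354 X-linked genes averaging 1 FPKM or more, 57.1% lay above 0, with a median difference of 0.03 on the log2(FPKM + 1) scale, and of 10369 autosomal genes 49.4% lay above 0, with a median of -0.0019. Differences at least as high as that of Tspan7 (0.63) were found for 7 X-linked genes (1.98%), Tspan7 included, and 76 autosomal genes (0.733%). Differences at least as high as that of Tspan6 (0.40) were found for 18 X-linked genes (5.08%) and 207 autosomal genes (1.996%). A change of at least 1.5-fold in either direction was found for 15 X-linked genes (4.24%) and 202 autosomal genes (1.95%), and the authors' deposited table called 7 of the X-linked genes (1.98%) and 68 of the autosomal genes (0.656%). The part of the X chromosome in the values of these members was not tested. The Tspan7 window from RefSeq (build GRCm38.p6, plus strand, chrX:10484866-10485165) is shown because Tspan7 had the largest difference among uncalled members. It holds 27 CG dinucleotides, in capitals.
Tspan7: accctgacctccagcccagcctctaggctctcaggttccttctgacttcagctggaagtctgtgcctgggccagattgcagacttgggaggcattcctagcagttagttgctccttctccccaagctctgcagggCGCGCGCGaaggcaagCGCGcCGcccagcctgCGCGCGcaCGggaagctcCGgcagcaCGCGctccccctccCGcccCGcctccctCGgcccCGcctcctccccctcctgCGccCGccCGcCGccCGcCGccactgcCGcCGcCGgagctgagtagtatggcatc

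The group that binds the sheddase ADAM10 and steers it to its substrates held no call, against 0.718% of all genes with a q-value under 1. Tspan17 was at 12.5 FPKM in the mutant and 13.3 FPKM in wild type, and Tspan14 at 8.88 FPKM in the mutant and 9.94 FPKM in wild type. Both lay slightly lower in the mutant, while Tspan5 lay higher, at 7.71 FPKM in the mutant and 6.21 FPKM in wild type. Tspan15 was at 1.12 FPKM in the mutant and 1.29 FPKM in wild type, and Tspan33, known from erythroid cells, at 0.874 FPKM in the mutant and 0.976 FPKM in wild type. Tspan10 was listed at 0 in both genotypes. Of the 4 members of this group averaging 1 FPKM or more, Tspan5 lay above 0 and the other 3 below. The summed level of the group was 31.1 FPKM in the mutant and 31.7 FPKM in wild type.

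Among the remaining abundant members, Cd151, which binds laminin-binding integrins, was at 40.2 FPKM in the mutant and 37.7 FPKM in wild type. Its relative Tspan11 was listed at 0 in both genotypes. Tspan31 was at 37.4 FPKM in the mutant and 37.5 FPKM in wild type, and Tspan4 at 24.1 FPKM in the mutant and 24.5 FPKM in wild type. The level of Tspan31 is uncertain because 29.2% of its annotated exon bases overlap exons of Cdk4 on the opposite strand in GENCODE M21. Cdk4, the G1 phase kinase, was far more abundant, at 560.0 FPKM in the mutant and 590.0 FPKM in wild type. In all, 11 members shared exon bases with another annotated gene, and Tspan31 shared the largest part. Tspan4 shared 13.4% of its exon bases with Chid1, at 2.92 FPKM in the mutant and 3.33 FPKM in wild type.

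Tspan9, a tetraspanin of platelets, had the second lowest difference after Cd37. It was at 3.25 FPKM in the mutant and 4.66 FPKM in wild type, 69.7% of the wild-type level, and its q-value was 0.240 in the authors' deposited table. Its neighbour on chromosome 6 is Tspan11, with no other gene listed under its RefSeq symbol between them. Tspan13 was at 8.02 FPKM in the mutant and 9.16 FPKM in wild type. Neither Tspan9 nor Tspan13 was called.

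Members known from specialised epithelia and the retina were also measured. Upk1a, a uroplakin of the bladder lining, was at 9.12 FPKM in the mutant and 9.05 FPKM in wild type, while Upk1b was listed at 0 in the mutant and at 0.0152 FPKM in wild type. Of the uroplakins that form complexes with them, Upk2 was at 3.23 FPKM in the mutant and 2.70 FPKM in wild type, Upk3b at 2.83 FPKM in the mutant and 3.97 FPKM in wild type, and Upk3a was listed at 0 in both. Upk1a was thus the most abundant of these uroplakins in both genotypes. Rom1, a photoreceptor outer segment protein, was at 1.75 FPKM in the mutant and 1.27 FPKM in wild type. Its partner Prph2 was at 0.0144 FPKM in the mutant and 0.0757 FPKM in wild type, and none of the 7 photoreceptor markers reached 1 FPKM. Tspan8, found in gut epithelium and in some carcinomas, was at 1.07 FPKM in the mutant and 0.671 FPKM in wild type, and Tspan1 at 0.606 FPKM in the mutant and 0.808 FPKM in wild type. No gene of this group was called. The Upk1a window from RefSeq (build GRCm38.p6, chromosome 7, minus strand, chr7:30612685-30612984) is shown because it holds 0 CG dinucleotides, so it has no capitals, although the gene's RNA was detected.
Upk1a: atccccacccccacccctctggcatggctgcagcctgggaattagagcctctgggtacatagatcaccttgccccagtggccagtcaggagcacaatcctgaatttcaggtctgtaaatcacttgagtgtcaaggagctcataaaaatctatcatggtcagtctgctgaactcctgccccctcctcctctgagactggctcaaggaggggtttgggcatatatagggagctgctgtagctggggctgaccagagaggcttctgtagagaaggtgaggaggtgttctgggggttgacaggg

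The remaining members were near 0. Tspan12, which strengthens Norrin signalling through Fzd4 in the retinal vasculature, was at 0.0812 FPKM in the mutant and 0.0998 FPKM in wild type. Its receptor Fzd4 was at 0.357 FPKM in the mutant and 0.457 FPKM in wild type, and the ligand Ndp was listed at 0 in both. Of the co-receptors, Lrp5 was at 13.5 FPKM in the mutant and 11.1 FPKM in wild type, and Lrp6 at 5.13 FPKM in the mutant and 4.96 FPKM in wild type. Tspan18 was at 0.0276 FPKM in the mutant and 0.00690 FPKM in wild type, too low for its ratio to be read.

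The family's median lay near 0, with members on either side. The 20 members averaging 1 FPKM or more had a median difference of 0.0096 on the log2(FPKM + 1) scale, with 11 above 0 and 9 below. The 10766 genes past the same filter had a median of -0.0012, with 5343 above 0 and 5423 below. A difference of less than 0.1 was found in 10 of these 20 members and in 49.4% of all genes kept. A change of at least 1.5-fold on that scale was found for 2 of 20 members, Cd37 below and Tspan7 above, and for 222 (2.06%) of all genes kept. The 10 members below the filter are described by their levels only.

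**Figure D2:**
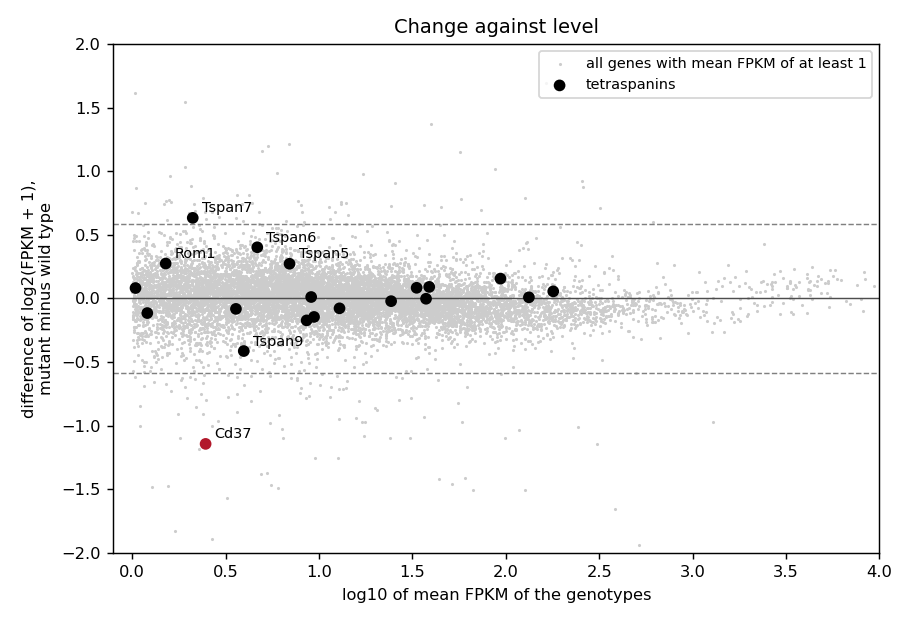
Mutant minus wild type difference on the log2(FPKM + 1) scale against the log10 of the mean FPKM, for the 20 tetraspanins averaging 1 FPKM or more (large points, the called Cd37 in red) and all genes kept (grey). Dashed lines mark 1.5-fold; 58 genes lie outside the axes. Cd37 (-1.14) and Tspan7 (0.63) lie past the dashed lines, and the abundant members lie close to 0.

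Of 65 genes in 5 lists of tetraspanin partners, 54 had a q-value under 1 and the authors' deposited table called 2 of these (3.70%, against 0.718% of all such genes), both higher in the mutant. With 2 calls this share describes those genes and not the lists. Ifitm1, an interferon-induced membrane protein that associates with Cd81, was at 396.1 FPKM in the mutant and 241.1 FPKM in wild type, a ratio of 1.64 with a q-value of 0.0103 in the authors' deposited table. The related Ifitm2 was at 514 FPKM in the mutant and 498 FPKM in wild type, and Ifitm3 at 137 FPKM in the mutant and 147 FPKM in wild type, neither of them called. Notch3, a receptor that ADAM10 can cleave, was at 2.83 FPKM in the mutant and 1.79 FPKM in wild type, a ratio of 1.58 with a q-value of 0.0327 in the authors' deposited table.

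The list of immunoglobulin superfamily and other membrane partners kept 10 of 15 genes, 7 above 0 and 3 below, with a median difference of 0.02 on the log2(FPKM + 1) scale. Igsf8, the main partner of Cd9 and Cd81, was at 10.3 FPKM in the mutant and 10.9 FPKM in wild type. The second such partner, Ptgfrn, was at 7.21 FPKM in the mutant and 7.24 FPKM in wild type. Epcam was at 89.6 FPKM in the mutant and 86.5 FPKM in wild type.

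The ADAM and Notch list kept 11 of 12 genes, 9 above 0 and 2 below, with a median difference of 0.06. Adam10 itself was at 5.64 FPKM in the mutant and 5.68 FPKM in wild type. Jag2, a Notch ligand, was at 5.11 FPKM in the mutant and 3.97 FPKM in wild type, while the cadherin Cdh1, which ADAM10 also cleaves, was at 52.8 FPKM in the mutant and 42.6 FPKM in wild type. Cdh2, another cadherin that it cleaves, was at 1.497 FPKM in the mutant and 0.961 FPKM in wild type. None of these 4 was called. The integrin list kept 8 of 12 genes, none of them called, and their median was 0.08. Its largest differences were those of Itga3, the laminin receptor bound by Cd151, at 9.59 FPKM in the mutant and 12.1 FPKM in wild type, and Itgav at 1.94 FPKM in the mutant and 1.43 FPKM in wild type. Itga6, also bound by Cd151, was at 28.3 FPKM in the mutant and 24.6 FPKM in wild type, and Itgb5 at 12.0 FPKM in the mutant and 10.3 FPKM in wild type.

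Genes of exosome formation and of protein palmitoylation, the lipid modification of tetraspanins, held no call. At 0.718% called among all genes with a q-value under 1, this does not set these lists apart. The exosome list kept 14 of 16 genes with a median difference of 0.0048, with Pdcd6ip, which encodes ALIX, at 16.9 FPKM in the mutant and 14.998 FPKM in wild type, and Smpd2 at 9.94 FPKM in the mutant and 11.5 FPKM in wild type. Sdcbp, which encodes the Cd63-binding syntenin, was at 8.41 FPKM in the mutant and 8.14 FPKM in wild type. The 10 palmitoyltransferase genes had a median of 0.07, and Zdhhc20 had the largest difference, at 3.17 FPKM in the mutant and 2.51 FPKM in wild type. Zdhhc2, reported to palmitoylate Cd9 and Cd151, was at 1.57 FPKM in the mutant and 1.42 FPKM in wild type.

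**Figure D3:**
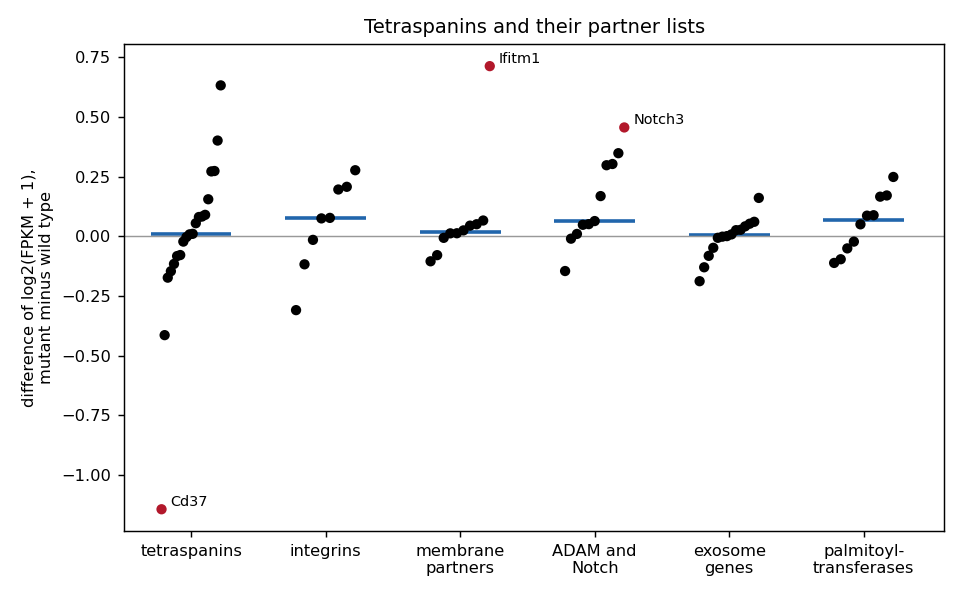
Mutant minus wild type difference on the log2(FPKM + 1) scale for genes averaging 1 FPKM or more in the tetraspanin family and 5 partner lists, sorted within each list; blue bars are medians and red points are genes called in the authors' deposited table. Cd37 is the 1 red point below 0, and Ifitm1 and Notch3 are the red points above 0.

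The position and promoters of the members were not used to choose them. Of the 30 genes, 6 lie on chromosome 7 (Upk1a, Cd37, Cd151, Tspan4, Tspan32 and Cd81). Cd151 and Tspan4 are separated there by 1 listed gene, as are Tspan32 and Cd81, which belong to a domain with imprinted genes. Differences in these 5 members other than Cd37 lay between -0.08 and 0.16 on the log2(FPKM + 1) scale, and none was called.

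RefSeq promoter windows of 300 bases were matched for 28 members, with Tspan18 and Upk1b not matched, and CG counts were averaged where a gene had several windows. The 20 members averaging 1 FPKM or more had a median of 18 CG dinucleotides per window (range 0 to 43), and the 8 matched members below that level had a median of 5.5 (range 1 to 21). Over all matched genes the medians were 21 for 7985 genes averaging 1 FPKM or more and 5 for 8304 genes below it. Upk1a with 0, Tspan32 with 2, Cd63 with 6 and Cd37 with 8 had the fewest among the members kept, and 9.78% of the 7985 genes past 1 FPKM with a window had at most as many as Cd37. Tspan5 had the most, 43. The count did not order the members by level, since Cd63 was the second most abundant member and Tspan5 was at 7.71 FPKM in the mutant and 6.21 FPKM in wild type. The motif TATAAA, searched on both strands, was found in 2 of 38 member windows (5.26%), those of Tspan12 and Cd81, and in 13.6% of all 32851 windows. The motif CCAAT was found in 11 member windows (28.9%) and in 37.4% of all windows. These motif shares count windows and not genes, and Tspan9 and Cd82 among others had several windows. They were not split by the level of the genes. Neither motif was in the 4 windows printed above. The bases just after the annotated start matched a transcript sequence for Cd37 and Cd9 but not for Tspan7 and Upk1a. The cause was not tested.

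**Figure D4:**
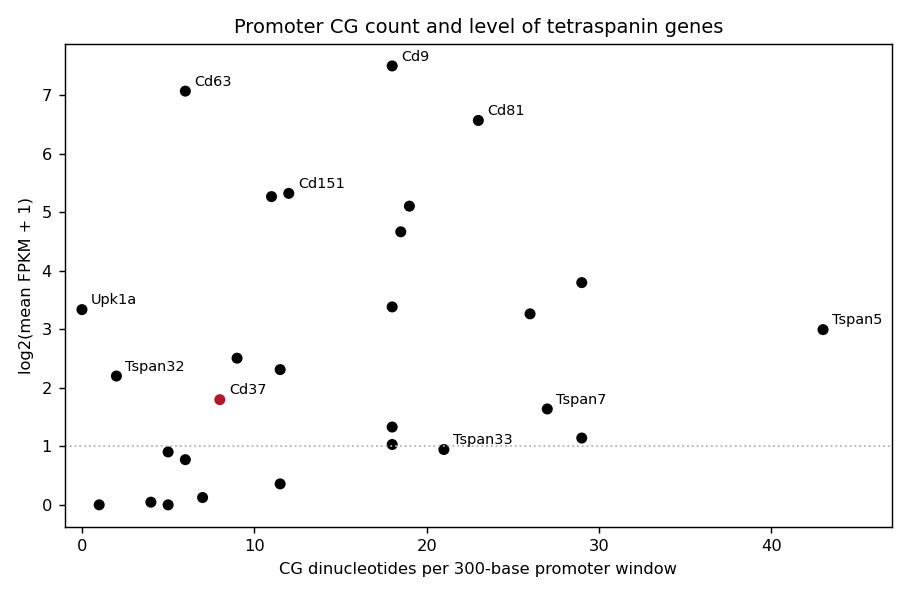
Level, as log2(mean FPKM + 1) over the genotypes, against the number of CG dinucleotides per 300-base promoter window, for the 28 tetraspanins with a window; the dotted line marks a mean of 1 FPKM and Cd37 is in red. Upk1a, Tspan32 and Cd63 lie above the line with 0, 2 and 6 CG dinucleotides, while Tspan33, with 21, lies just below it.

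Markers of other cell types were read beside the members. In the fibroblast list Vim fell, at 76.3 FPKM in the mutant and 157.7 FPKM in wild type, with a q-value of 0.0103 in the authors' deposited table, the same direction as Cd37. The fibroblast collagen genes Col1a1 and Col1a2 were below 0.1 FPKM in both genotypes, and Col3a1 was listed at 0. Of 10 fibroblast markers, 3 averaged 1 FPKM or more, and the list summed to 89.0 FPKM in the mutant and 174.0 FPKM in wild type, or without Vim to 12.6 FPKM in the mutant and 16.3 FPKM in wild type. The uncalled Thy1 was at 11.5 FPKM in the mutant and 14.2 FPKM in wild type, and the uncalled S100a4 at 0.767 FPKM in the mutant and 1.55 FPKM in wild type. All 3 fibroblast markers kept thus lay lower in the mutant, with a median difference of -0.53 on the log2(FPKM + 1) scale. In the neuron list Stmn2 fell, at 39.8 FPKM in the mutant and 71.2 FPKM in wild type, with a q-value of 0.0103 in the authors' deposited table, as the 1 call among 3 genes kept of 7. The other 2 genes kept were Tubb3, at 49.1 FPKM in the mutant and 50.7 FPKM in wild type, and Map2, at 1.87 FPKM in the mutant and 1.84 FPKM in wild type. That list summed to 91.9 FPKM in the mutant and 124.5 FPKM in wild type, and without Stmn2 to 52.1 FPKM in the mutant and 53.3 FPKM in wild type. Dcx and Snap25 were below 0.1 FPKM in both genotypes. Of all genes with a q-value under 1, 0.718% were called. With 1 call in each list, the calls describe Vim and Stmn2 and not the fibroblast and neuron lists. The part of these cell types in the tetraspanin values was not tested.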

How the data were processed

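Total RNA of 4 libraries, made with the NEBNext Ultra RNA kit per the labels' protocols, was sequenced. The submitters' processing notes name TopHat2 2.1.0, bcl2fastq 2.17.1.14, Cufflinks and build mm9. An annotation and a test not given in the sources used here stand behind the values and q-values. Per the file headers, the deposited values are 1 FPKM per gene and genotype, the log2 ratio of mutant to wild type and a q-value. The fold change has no pseudocount.

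Differences of log2(FPKM + 1), mutant minus wild type, were computed with pandas 2.3.3 for genes with a mean FPKM of at least 1. This scale understates changes of low genes. The limma fit foreseen for values per library could not be made on 1 value per genotype. Depth is unknown. Chromosomes came from RefSeq (GRCm38.p6) and GENCODE M21 by symbol, and 99.6% of genes kept matched. No coordinates were converted. Neighbouring genes were taken by RefSeq symbol only, so any gene listed under another symbol was skipped. The calculation was tested on a copy of the wild-type values without noise, in which set changes were made to genes of at least 5 FPKM. This checks the arithmetic only, and the levels of Cd37 and Tspan7 lie below that range. The tetraspanins and all lists were chosen with earlier results of these data known.

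Named were all members with at least 1 FPKM in either genotype, all called members and the 5 next by level, with up to 4 genes per list chosen by size or call, the 3 listed genes on each side of a called member, and Chd2. Other genes named (the remaining members, well-known partners and defining markers) were chosen after their values were seen. Alternatives were other pseudocounts, filters, scalings and q thresholds.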

Additional observations from a re-analysis of the deposited data

How the results depend on the processing

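Cd37 stayed lower in the mutant under every setting that kept it, from -1.62 (pseudocount 0.1) and -1.70 (no pseudocount) to -1.14 with the median set to 0 and -1.17 after quantile normalization. A pseudocount cannot change the sign of a difference, and the median of all genes kept (-0.0012) was too small to change that of Cd37. A mean of at least 5 FPKM removes Cd37 and Tspan7 by construction, which leaves 0 called members and 0 members past 1.5-fold. Requiring a q-value under 0.1 or under 0.02 left the 1 call. That outcome was fixed by the authors' q-values of Cd37 (0.0103) and of the next member, Tspan7 (0.145). Without Cd37, a setting chosen after seeing the data, 1 member (Tspan7) was past 1.5-fold. The family median was 0.051 after quantile normalization, where all genes had a median of 0.0074. With no filter, a setting that by construction adds the 10 members averaging under 1 FPKM, the family median was -0.0014. The sign of the family median is thus not settled, and the cause of the shift after quantile normalization was not tested. The ratio of summed levels was 1.03 in all settings run. Of 76 values of single uncalled members under the other pseudocounts and scalings, 64 kept their sign and stayed within 1.5 times, and Tspan31 was the 1 member that changed sign. A filter or leaving out Cd37 cannot alter a member's own value. No paired analysis was possible because the table has no values per library, and leaving out a library could not be run for the same reason. With depth unknown, levels near 0 carry no limit of detection.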

Other observations

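Further lists fixed with the others held no called gene. With 0.718% called among all genes with a q-value under 1, lists this short are not set apart by the absence of a call. The L6 family and claudin-like membrane proteins, which share the general shape of tetraspanins without belonging to them, kept 4 of 9 genes with a median difference of 0.08 on the log2(FPKM + 1) scale, with Tm4sf5 at 4.05 FPKM in the mutant and 5.24 FPKM in wild type and Emp1 at 8.04 FPKM in the mutant and 8.19 FPKM in wild type. Tm4sf1, Tm4sf4, Tm4sf19 and Tm4sf20 were listed at 0 in both genotypes. The endothelial list kept 2 of 7 genes, Pecam1 at 9.91 FPKM in the mutant and 8.78 FPKM in wild type and Tek at 3.44 FPKM in the mutant and 2.31 FPKM in wild type. The epithelial and urothelial list kept 7 of 9 genes with a median of 0.17. The trophoblast list kept 3 of 6 with a median of -0.0095, the primitive endoderm list none of 8, and the list of megakaryocyte and erythroid genes kept Gata1, at 2.20 FPKM in the mutant and 2.14 FPKM in wild type, of 6 in the table.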
